A study of Mus musculus with 8 samples.

Results

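The genes described here encode the machinery that holds RNA polymerase II shortly after it starts and then releases it. They are Cdk9 and Ccnt1 (P-TEFb), Supt5 and Supt4a (DSIF), Nelfa, Nelfb and Nelfe (NELF), and Hexim1 and Larp7, whose products keep P-TEFb inactive on the 7SK RNA. They were taken as a fixed list of 9 symbols, all of which matched the RefSeq gene table, out of 21887 protein-coding genes of the autosomes and sex chromosomes. Each gene was described by the H3K36me3 peaks that lay over its annotated span.

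Paused polymerase is bound by DSIF and NELF. P-TEFb, a kinase made of Cdk9 and a T-type cyclin, phosphorylates both factors and the polymerase tail, after which NELF leaves and DSIF travels on with the polymerase. The 7SK particle, held together in part by Larp7, stores P-TEFb in an inactive form through Hexim1. H3K36me3 itself is laid down behind elongating polymerase by Setd2, mostly over the body and the 3′ part of active genes. The data therefore show this mark on the genes that encode the elongation machinery, and they measure neither the machinery nor pausing.

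The cells were mouse embryonic stem cells grown feeder-free as spheres in 2i medium (1 µM PD0325901, a MEK inhibitor, and 3 µM CHIR99021, a GSK3 inhibitor) with 1000 U/ml LIF. All of them carried the doxycycline-inducible Setd2 knockdown. The control group was labelled Dox - and the knockdown group Dox +, with 1 µg/ml doxycycline for 4 days, and each group had 2 H3K36me3 ChIP and 2 input libraries. The sources used here do not say whether the inducible line is 1 clone or whether the replicates are separate cultures. The authors merged the replicates before calling peaks, which leaves 1 list per condition, 30634 peaks in control and 3040 in knockdown. There is no replicate spread, so no test between the conditions was made, and every interval below is a 95% interval for counting error only. The caller kept 36244210 ChIP tags in control and 29416169 in knockdown. As a check of the labelled cell type, 5 of 5 stem cell genes (Pou5f1, Nanog, Sox2, Esrrb, Zfp42) carried a control peak, against 1 of 10 genes of other lineages (Eomes).

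The control peaks began downstream of the promoter in the 7 genes with both a control peak and a promoter entry. This is not particular to them, since only 1.95% of 5730 genes so defined had a control peak on the promoter. The promoters of the 3 genes that carried a knockdown peak (Cdk9, Supt5, Nelfa), of the gene with no peak in either list (Hexim1) and of the gene marked only at its 3′ end (Larp7) are shown, so that the sequence next to each unmarked start can be seen. Each is the 250 bases before the start in the RefSeq promoter table of GRCm38.p6, 5′ to 3′ on the gene's strand. That start, from which distances from a start are counted, lies inside the annotated span in Supt5 and Nelfa, so that 85 and 30 of their printed bases belong to the span. The Cdk9 window also holds the microRNA genes Mir2861 and Mir3960. That of Larp7 runs into the span of the neighbouring gene Zgrf1, which begins 46 bp from Larp7. Capitals mark every match, on either strand, to 6 short motifs chosen after the sequences had been read: CCGGAAGT (a core bound by ETS factors), TGACGTCA (the cAMP response element), AAGATGGC (a core bound by YY1), TATAA (the TATA box), CCAAT (the CCAAT box) and GGGCGG (the GC box).
Cdk9, chr2:32712785-32713034, minus strand: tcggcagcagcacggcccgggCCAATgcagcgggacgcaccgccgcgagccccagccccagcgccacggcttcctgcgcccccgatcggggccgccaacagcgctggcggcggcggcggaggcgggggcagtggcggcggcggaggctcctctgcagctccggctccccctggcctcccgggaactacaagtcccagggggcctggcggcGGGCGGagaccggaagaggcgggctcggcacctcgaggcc
Supt5, chr7:28338720-28338969, minus strand: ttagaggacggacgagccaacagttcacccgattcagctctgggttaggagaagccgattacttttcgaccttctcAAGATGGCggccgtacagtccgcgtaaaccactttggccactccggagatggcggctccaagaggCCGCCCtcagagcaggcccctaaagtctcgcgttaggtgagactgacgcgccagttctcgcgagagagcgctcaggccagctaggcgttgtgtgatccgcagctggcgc
Nelfa, chr5:33936272-33936521, minus strand: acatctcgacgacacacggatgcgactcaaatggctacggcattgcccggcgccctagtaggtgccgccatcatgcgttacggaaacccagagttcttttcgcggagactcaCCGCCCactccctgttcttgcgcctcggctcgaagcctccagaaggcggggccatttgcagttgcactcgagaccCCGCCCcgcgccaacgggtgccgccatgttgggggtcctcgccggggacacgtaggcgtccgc
Hexim1, chr11:103116075-103116324, plus strand: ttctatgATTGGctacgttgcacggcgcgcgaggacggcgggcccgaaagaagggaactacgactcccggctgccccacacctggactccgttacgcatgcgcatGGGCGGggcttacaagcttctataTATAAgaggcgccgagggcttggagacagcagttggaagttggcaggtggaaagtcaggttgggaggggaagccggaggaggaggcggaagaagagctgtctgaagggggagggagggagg
Larp7, chr3:127553350-127553599, minus strand: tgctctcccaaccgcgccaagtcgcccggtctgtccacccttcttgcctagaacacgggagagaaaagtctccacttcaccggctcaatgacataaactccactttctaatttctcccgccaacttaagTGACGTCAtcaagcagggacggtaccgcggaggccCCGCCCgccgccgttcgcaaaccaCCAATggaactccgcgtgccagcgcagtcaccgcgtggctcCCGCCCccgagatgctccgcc

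Of the 9 genes 8 had a promoter entry, all but Nelfe. Their promoters held from 10 CpG sites in Nelfb to 34 in Supt4a over 250 bases, against a median of 6 (quartiles 2 and 16) over 32851 RefSeq promoter windows of the same length, which include those of non-coding genes. All 8 but Nelfb lay above the upper quartile. GGGCGG was present in 8 of 8, compared with 32.7% of all windows. CCAAT was present in 3 of 8 (Cdk9, Hexim1, Larp7), compared with 33.8%. TATAA was found in 2 of 8, compared with 22.8%, and lay 121 bases before the start of Hexim1 and 229 bases before that of Nelfb. The remaining motifs were each in 1 promoter, CCGGAAGT in Ccnt1 (2.88% of all windows), TGACGTCA in Larp7 (1.55%) and AAGATGGC in Supt5 (1.56%). The motifs were chosen after these sequences had been read, so the shares over all windows are no test of enrichment. Those windows were also not matched for CpG sites. The matches describe letters in the window and not binding.

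In control cells 8 of the 9 genes carried a peak, meaning that the midpoint of at least 1 peak lay within the gene, whereas 41.2% of all protein-coding genes did. Their median covered share, the percent of gene length under peaks, was 77.0%, and the median over all protein-coding genes was 0. Peaks lay over at least 50% of the length of 6 genes (Cdk9, Ccnt1, Supt5, Supt4a, Nelfb, Nelfe), which holds for 17.0% of all genes. Transcription was not measured here, and the list was chosen with earlier results on elongation genes known, so these counts describe the list and do not set it apart. After knockdown 3 of the 9 had a peak (Cdk9, Supt5, Nelfa), against 4.95% of all genes. The 3 are 37.5% of the 8 marked in control, and among all marked genes 10.6% kept one. The 8 are a chosen list and not replicates, so the difference between these shares was not tested. Base pairs under peaks, summed over the 9 genes, were 85728 in control and 4726 in knockdown, or 60.3% and 3.32% of 142220 bp.

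**Figure D1:**
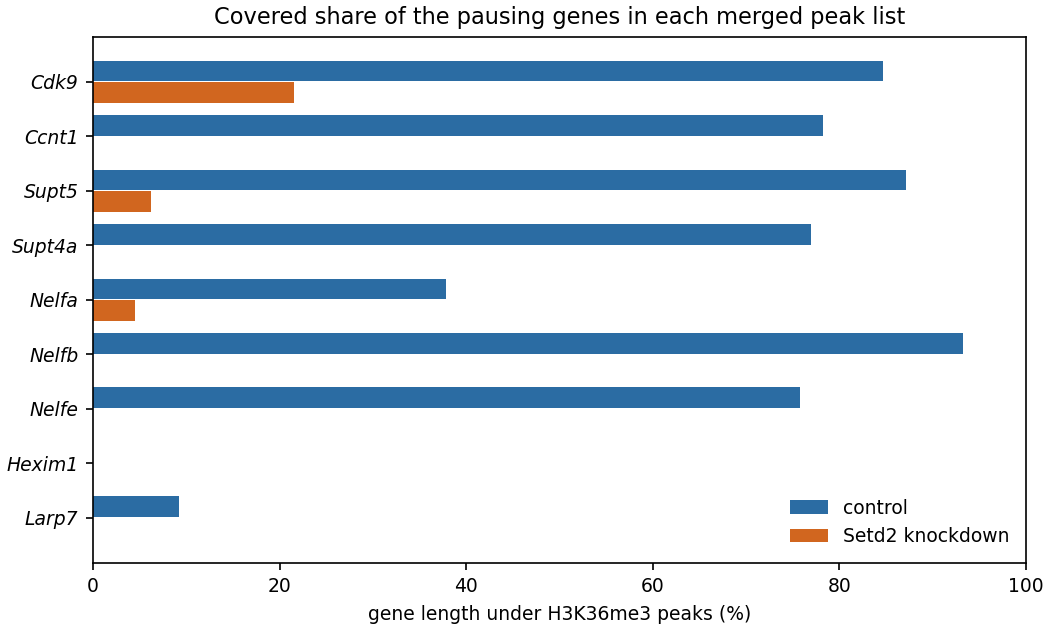
Percent of each gene's length under H3K36me3 peaks (horizontal axis) in the merged control list (blue) and the merged Setd2 knockdown list (orange), 1 value per gene and list. Shares in control run from 0 (Hexim1) to 93.3% (Nelfb), and only Cdk9, Supt5 and Nelfa have an orange bar.

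P-TEFb had called peaks over both of its genes in control and over the kinase gene alone in knockdown. Cdk9, the catalytic subunit, lies on chromosome 2 at 32705782 to 32712784 (mm10, 7003 bp). A single control peak of 7099 bp with 526 tags covered 84.7% of it, rank 744 of 21887. At 20.4 tags per kb per 10 M kept tags (18.7 to 22.3, exact Poisson), a density scaled to a library of 10 M tags, it was the densest of the 8 marked genes and denser than 98.9% of control peaks, where the median was 12.7 and the mean over the genome 5.35. In knockdown a peak of 1511 bp with 54 tags remained over 21.6% of the gene, at 12.1 tags per kb (9.13 to 15.9). That density was near the knockdown list's median of 12.5, and the interval does not reach the one around the control value, which however averages over the longer control peak. Before scaling the densities were 74.1 tags per kb in control and 35.7 in knockdown. Scaling to kept tags cannot show a change shared by the whole genome, so here and below densities of the different lists are not on a common absolute scale. The knockdown peak lay inside the control peak, 2087 to 3597 bp downstream of the start, and held the control summit. In the authors' table its fold over local background was 3.89, against 6.96 for the control peak.

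Ccnt1, the cyclin that activates Cdk9, spans 29047 bp of chromosome 15 from 98538690 to 98567736. In control 5 peaks with 1183 tags covered 78.3% of it, and in knockdown none. Its density of 14.4 tags per kb (13.6 to 15.2) was lower than that of Cdk9 beyond counting error. The 5 peaks were unequal: the longest, 7548 bp at 16.0 tags per kb (14.5 to 17.6), lay 6616 to 14163 bp from the start, and the sparsest, 1990 bp at 12.1 (9.66 to 14.9), lay 18208 to 20197 bp from it. The most downstream peak stopped 107 bp short of the gene end.

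DSIF had both genes marked in control and a small remnant at the 3′ end of the larger. Supt5, which encodes the subunit that clamps onto the polymerase, lies on chromosome 7 at 28314891 to 28338804 (23914 bp). Its 3 control peaks, with 1460 tags in all, covered 87.1% of it. They differed widely: the main peak of 18087 bp held 73.0 tags per kb before scaling, or 20.1 per 10 M kept tags (19.1 to 21.3), and the pair nearest the start only 10.1 (7.77 to 12.8) and 11.0 (8.63 to 13.7). Density was thus about that of Cdk9 over most of the gene and close to the lowest of the list near the start. The knockdown peak of 1500 bp, with 55 tags at 12.5 per kb (9.39 to 16.2), covered 6.27% of the gene. It lay 22116 to 23615 bp from the start and ended 213 bp before the gene end, and the control summit was 66 bp outside it.

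Supt4a, the small zinc-binding partner of Supt5, lies on chromosome 11 at 87737551 to 87743623 (6073 bp). Its single control peak of 6527 bp held 340 tags, 14.4 per kb (12.9 to 16.0), and covered 77.0% of the gene. It had no knockdown peak. The peak began 1397 bp after the start and ran 1851 bp past the gene end. Supt4b, a related gene of 710 bp on chromosome 10, had no peak in either list. The sources used here do not say how reads that match both genes were placed.

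NELF was marked over all 3 listed subunit genes in control, with very different extents. Nelfb, on chromosome 2 at 25199712 to 25211489 (11778 bp), had the largest covered share of the list, 93.3%, rank 182 of 21887. A single peak of 11888 bp with 753 tags, 17.5 per kb (16.3 to 18.8), began 795 bp after the start and ran 905 bp past the end. It also covered Gm22572, a small nuclear RNA gene of 105 bp within the Nelfb span. Nelfe, the RNA-binding subunit, on chromosome 17 at 34850391 to 34856372 (5982 bp), was covered over 75.8% by a peak of 5612 bp with 370 tags, 18.2 per kb (16.4 to 20.1). Neither gene had a knockdown peak, although only Cdk9 and Supt5 had higher control densities in this list. The Nelfe peak also reached into Cfb, a complement gene whose span begins 1 bp beyond that of Nelfe, where it covered 1074 bp, 17.5% of Cfb.

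Nelfa, on chromosome 5 at 33897916 to 33936301, was the longest gene of the list (38386 bp) and was covered over 37.8% in control. Its 4 control peaks left a wide unmarked stretch between the middle of the gene and its 3′ end. The last peak, 9963 bp with 588 tags, ran 4596 bp past the gene end into Nsd2, a gene for an H3K36 methyltransferase whose span shares 51 bp with that of Nelfa, so this signal cannot be assigned to either gene alone. The same peak covered Mir7024, a microRNA gene within the Nelfa span. The third peak from the start of Nelfa, 5369 bp at 16.1 tags per kb (14.4 to 18.0), lies in the body of the gene and over no other annotated gene. In it stood the knockdown peak, 1715 bp with 67 tags at 13.3 per kb (10.3 to 16.9), over 4.47% of the gene. It lay 14613 to 16327 bp from the start, held the control summit and had the highest caller score of the 3 knockdown peaks, 102.53, in the authors' table. The intervals of the scaled knockdown and control densities of these peaks overlapped. Before scaling the densities were 39.1 tags per kb in knockdown and 58.5 in control.

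Hexim1 and Larp7, the 2 listed genes of the 7SK particle, were the least marked of the 9. This does not hold for all 7SK genes, since Mepce, outside the list, was covered over 57.5% in control. Hexim1, an intronless gene whose product inhibits Cdk9, lies on chromosome 11 at 103116325 to 103119725 (3401 bp). No peak touched it in either list. A gene without a called peak is not shown to lack the mark, since the files hold no tag counts outside peaks. Larp7, on chromosome 3 at 127536714 to 127553349 (16636 bp), had 1 control peak of 1845 bp with 73 tags over its last part, 9.21% of the gene, and none in knockdown. The peak began 15103 bp after the start and passed the gene end by 312 bp. At 10.9 tags per kb (8.56 to 13.7) it was the sparsest of the 8 marked genes, and the sparsest peak in the whole knockdown list had 10.2. Its absence from the knockdown list thus says little about the size of any drop.

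**Figure D2:**
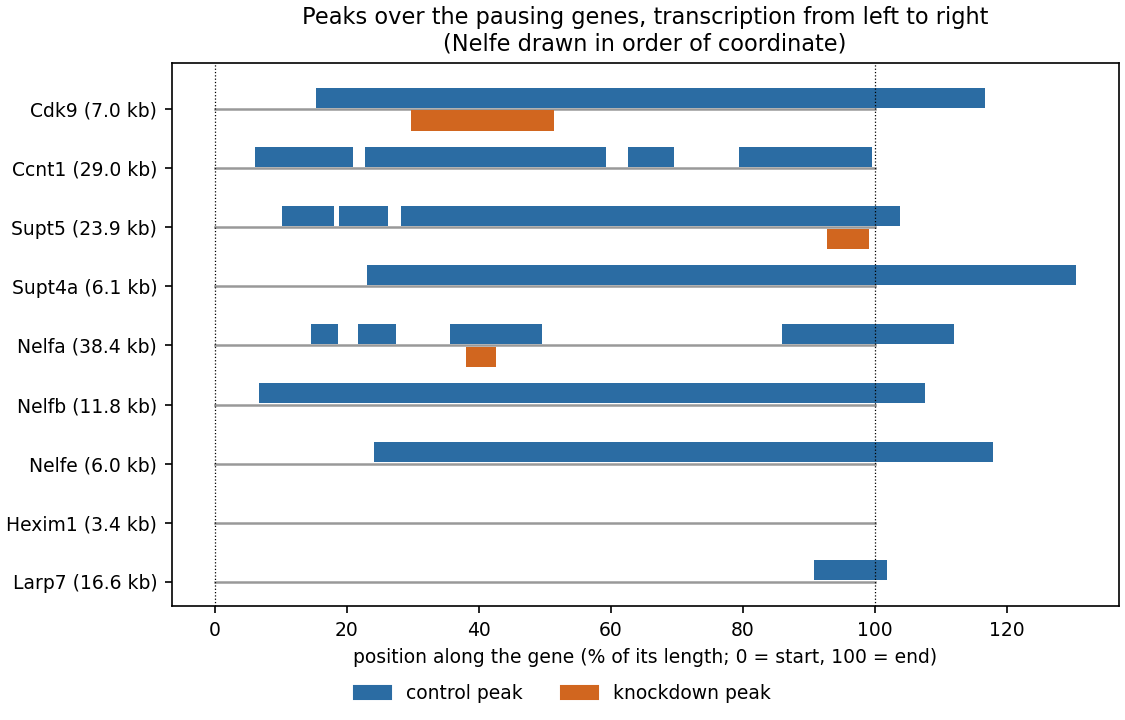
Peaks over each gene, placed by their position along the gene in percent of its length (horizontal axis, 0 the start and 100 the end, transcription from left to right, Nelfe in order of coordinate), control above each line in blue and knockdown below in orange. Control peaks leave the start free, the single Larp7 peak sits at the gene end, and the 3 knockdown peaks lie within control peaks of Cdk9, Supt5 and Nelfa.

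In order of control density the genes ran Cdk9 (20.4), Supt5 (18.5), Nelfe (18.2), Nelfb (17.5), Nelfa (15.4), Ccnt1 (14.4), Supt4a (14.4) and Larp7 (10.9 tags per kb per 10 M kept tags), with a median of 16.4. Each value averages over all peaks that overlap the gene. Counting intervals of neighbours overlapped from Cdk9 (18.7 to 22.3) and Supt5 (17.6 to 19.5) through Nelfe and Nelfb, and from Nelfa (14.5 to 16.3) through Ccnt1 and Supt4a. Those of Nelfb (16.3 to 18.8) and Nelfa met at 16.3, so no gap parts these genes. Supt4a (12.9 to 16.0) and Larp7 (8.56 to 13.7) overlapped narrowly. The 3 genes with a knockdown peak stood at places 1, 2 and 5 in this order, and Nelfe and Nelfb, at places 3 and 4, had none.

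**Figure D3:**
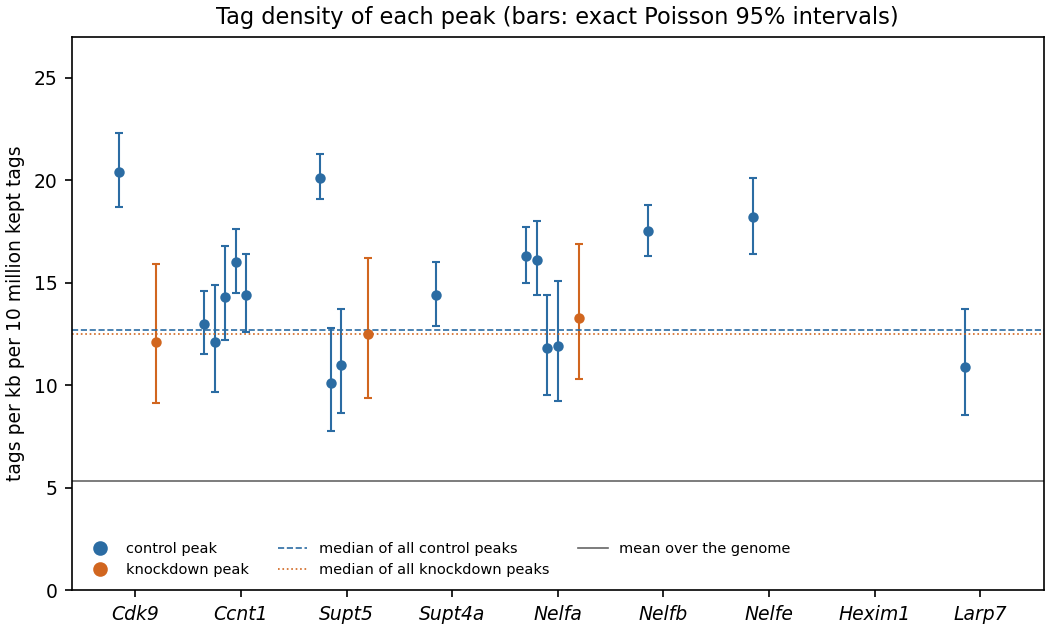
Tags per kb per 10 M kept tags (vertical axis) for each peak over each gene, with exact Poisson 95% intervals, control in blue and knockdown in orange; horizontal lines give the median of each list (12.7 and 12.5) and the mean over the genome (5.35). The Cdk9 peak and the main Supt5 peak stand highest at 20.4 and 20.1, and the 3 knockdown peaks lie between 12.1 and 13.3, close to their list's median.

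The control peaks kept clear of the start, as in nearly all marked genes, and mostly ran over the end. Of the 7 genes with both a control peak and a promoter entry, 0 had a peak on the window from 250 bases before to 50 after the start, and among 5730 genes so defined 1.95% did. No knockdown peak touched such a window either. The first peak began between 795 bp (Nelfb) and 15103 bp (Larp7) after the start, with a median of 1789 bp (Ccnt1) against 3716 bp over the 5730 genes. A peak covered the annotated last base of 6 of the 7 genes, all but Ccnt1, compared with 48.4% of the 5730. Where it did, it ran on for 312 bp (Larp7) to 4596 bp (Nelfa). Gene length enters all of these distances and was not matched.

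The 3 knockdown peaks were alike in size and lay in the middle range of their own list. They measured 1500 to 1715 bp, held 54 to 67 tags and lay entirely within control peaks. They covered 25.5% of the control-marked base pairs of Cdk9, 11.8% of those of Nelfa and 7.20% of those of Supt5. By caller score they stood at percentiles 41.2 (Cdk9), 53.7 (Supt5) and 72.0 (Nelfa) of the knockdown list. They held the control summit in Cdk9 and Nelfa, as knockdown peaks did in 70.1% of the 1998 control peaks that one overlapped. The median of those 1998 control peaks was covered over 50.5% of its length. The control peaks overlapped here were covered over less, 21.3% in Cdk9, 31.9% in Nelfa and 8.29% in Supt5. Peak length was not matched. Among the 1375 knockdown peaks of 1300 to 1800 bp the sparsest had 10.2 tags per kb and the median was 12.4. No peak of that length was called at a lower density, and tags outside peaks are not in the files, so the other 5 marked genes are known only to have no called peak.

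Genes with shares most like those of Cdk9 were sought among 11953 protein-coding genes with a named symbol (neither Gm nor Rik) and a span free of other genes, by the larger of the differences in control and knockdown covered share. The nearest 3 were Pa2g4 (84.1% in control and 22.4% in knockdown), a growth-related RNA-binding protein gene, Cenpa (85.8% and 19.1%), the centromeric histone H3 variant, and Mcm2 (82.9% and 18.97%), a subunit of the replicative helicase. The larger differences were 0.776, 2.48 and 2.61 percentage points. This likeness rests on 1 merged list per condition.

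**Figure D4:**
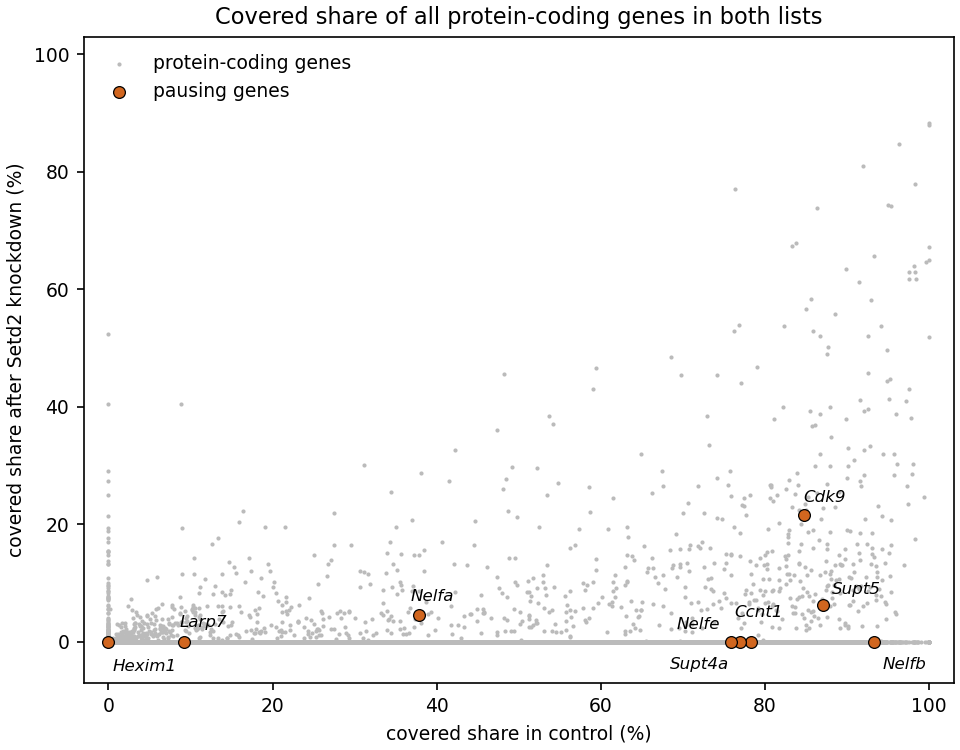
Covered share in control (horizontal axis, percent of gene length) against covered share after Setd2 knockdown (vertical axis, percent) for all 21887 protein-coding genes (grey) and the 9 pausing genes (orange, named). Cdk9 stands at 84.7% and 21.6%, Supt5 and Nelfa just above the horizontal axis, and the other 6 on it.

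Other genes of pause release had a lower median covered share. They comprised 24 genes: the second T-type cyclin, the remaining NELF and 7SK subunits, the super elongation complex, the kinase module of TFIIH, Cdk12, Cdk13 and their cyclin, and a few partners. A control peak was present in 21 of them and a knockdown peak in 3, against 41.2% and 4.95% of all protein-coding genes. Their median control share was 40.7%, against 0 over all protein-coding genes. The 3 are 14.3% of the 21 marked in control, and among all marked genes 10.6% kept a peak, a difference that was not tested. The 24 genes were longer, with a median of 37068 bp against 11778 bp for the 9 genes and 17169 bp for all genes, and the difference was not tested. The highest control shares were those of Ccnk (85.1%), the cyclin of Cdk12, Jmjd6 (77.9%), a JmjC-domain hydroxylase gene, and Polr2m (75.9%), which encodes the Gdown1 subunit of paused polymerase. The 3 with a knockdown peak were Polr2m (14.7% of its length), Cdk12 (63.0% in control and 1.77% in knockdown) and Aff4 (51.2% and 2.47%), the scaffold of the super elongation complex. Among direct relatives of the list, named after their values were seen, Ccnt2 was covered over 13.8% in control, Nelfcd over 65.3%, Mepce, the capping enzyme of 7SK, over 57.5% and Hexim2 over 7.12%, and none had a knockdown peak. Mllt3 and Mnat1 had no peak at all, and the control peak that covered 73.5% of Ell3 had its midpoint outside that gene.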

How the data were processed

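H3K36me3 ChIP and input libraries of control and Setd2 knockdown cells were grouped by the titles, treatment, antibody and genotype in the labels. Bowtie 1.1.2, FastQC 0.11.5 and build mm10 are named in the submitters' processing notes. MACS 1.4.2 was run by the authors, per the file headers, on merged replicates against merged inputs (p cutoff 1e-05, 1 tag kept per position). The deposited tables give for each peak a count of tags, a score that grows as the caller's p-value falls, the fold or ratio of ChIP over local background, and an FDR as a percent.

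Gene spans and promoters came from RefSeq tables of GRCm38.p6, the assembly of mm10. Covered share, peaks by midpoint, and tags per kb of whole overlapping peaks per 10 M kept tags were computed in Python 3.11.15 with scipy 1.17.1, and the interval functions were checked on simulated peaks. Strand was read from the promoter table. The 9 genes, the other pause-release genes and the rules were chosen with earlier results of these data known. The rule for named genes took all 9 genes, other pause-release genes with a knockdown peak or among the 3 highest control shares, the 3 genes most like the most covered knockdown gene, and genes sharing a peak. Alternatives varied the peak filter, the rule for having a peak, the gene span and the way tags were summed. Values of 1 of the other pause-release genes are not reported here.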

Additional observations from a re-analysis of the deposited data

How the results depend on the processing

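The 8 genes with a control peak and the 3 with a knockdown peak were the same genes when any overlap of 1 bp sufficed, with an FDR of 5% or less, and with spans extended by 1 kb. The knockdown calls were fragile under stricter rules. Coverage of at least 10% left 1 gene with a knockdown peak and 1 kept (Cdk9), a caller score of 100 or more left 1 and 1 (Nelfa), and an FDR of 1% or less left 0 and 0, since their FDR values are 1.34% to 1.87% and only 588 of 3040 knockdown peaks pass. With only the 3040 top-scoring control peaks, 4 genes had a control peak (Cdk9, Ccnt1, Nelfa, Nelfe). Supt5 and Nelfb drop out there with scores of 267.42 and 280.76 although their main peaks are denser than 98.6% and 93.8% of control peaks; the cause was not tested. The median control share was then 0, and it was 75.8% with a score of 100 or more and 70.3% with extended spans, against 77.0%. The median control density was 12.5 instead of 16.4 tags per kb when tags were apportioned and divided by gene length. Of 22 tag densities of single genes under the alternatives, 12 stayed within their counting interval and 10 moved beyond it. Of these, 11 were unchanged because every peak over these genes had its midpoint in the gene, so the midpoint rule could move none. The 10 that moved came from dividing apportioned tags by gene length, which is a different quantity. The 12 are therefore no measure of robustness. Of 72 covered shares of single genes, which have no counting interval, 50 were unchanged and 22 changed. No paired analysis was possible because the authors merged the replicates before calling peaks, and for the same reason no replicate could be left out. The knockdown list rests on 29416169 kept tags and the control list on 36244210, and the part of depth in the calls was not tested.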

Other observations

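Several neighbours of these genes were marked in control, and none of them had a base under a knockdown peak. Only 10.6% of all protein-coding genes with a control peak also had a knockdown peak, so this does not set the neighbours apart. Zgrf1, a DNA helicase gene that starts 46 bp from the start of Larp7 and runs the other way, was covered over 51.6% in control, where Larp7 had 9.21%. Skiv2l, which encodes an RNA helicase of the exosome pathway and whose span ends 186 bp from Nelfe, was covered over 84.6%, and Timm50, a mitochondrial import gene downstream of Supt5, over 83.8%. Fpgs, the folate-retaining synthetase gene downstream of Cdk9, was covered over 46.1%. Tor4a and Stpg3 on either side of Nelfb, covered over 93.3%, had no control peak.

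The miR-302 and miR-367 hairpins, a cluster characteristic of pluripotent cells, lie within the span of Larp7 on chromosome 3 between 127545228 and 127545807. No peak of either list touched them or the overlapping long non-coding gene Gm51018. Rn7sk, the gene of the 7SK RNA itself (332 bp on chromosome 9, transcribed by RNA polymerase III), had no peak in either list.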
